A study of Mus musculus with 8 samples.

Results

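Cluster 8 was the CD4 T cell cluster with the most Klf2 mRNA among immune cells infiltrating NIT-1 beta cell grafts, and it held 1160 of the 4876 CD4 T cells and of the 22441 cells in all. It was chosen by its Klf2 level alone. The cells that the authors had annotated as CD4 T cells fell into 4 of their clusters, and in each cluster the UMIs (unique molecular identifiers, the counted mRNA molecules) were summed over all cells and given per 1000000 UMIs of the cluster (CPM). Klf2 stood at 350 CPM in cluster 8, which was the value that chose it, against 228 CPM in cluster 22, the nearest below, 223 CPM in cluster 7 and 153 CPM in cluster 0. All cells of cluster 8 carried the CD4 T cell annotation.

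The grafts were WT or Rnls mutant NIT-1 cells, an insulin-producing line from a NOD mouse, placed under the skin on opposite flanks of the same NOD.scid mice, which make no T or B cells of their own. Every mouse received autoreactive splenocytes of recently diabetic NOD mice, and grafts were taken 10 or 17 days into the experiment, with 4 grafts per genotype and day and no group without transfer. Living CD45+ cells were sorted, the 4 grafts of a genotype and day were marked with hashtag antibodies 1 to 4, and each such pool was run as 1 droplet library. Each library thus held 1 genotype at 1 day, so that genotype or day and library cannot be told apart, and the labels give no age of the mice. The mutation lies in the grafted cells and not in the T cells, so Rnls in these cells cannot check the labels, and since the labels do not tie a hashtag to a mouse, p-values measure the spread between grafts as labelled. Between 13 and 43 cells of cluster 8 came from each Rnls mutant graft at day 10 and between 8 and 34 from each WT graft. At day 17 the numbers were 54 to 290 and 42 to 226. The WT day 10 graft 4, with 8 cells, was left out of the tests of expression in the cluster, which therefore used 15 grafts. It was kept in the tests of shares and in the fit over all CD4 T cells. Median UMIs per cell of the cluster were 2035 to 2422 in the Rnls mutant and 4003 to 6730 in the WT grafts at day 17, without overlap, and 2159 to 3410 over both genotypes at day 10. Of the 1160 cells, 7 carried a cell barcode that also occurred in another library.

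KLF2 is a zinc-finger transcription factor tied to T cell quiescence. In resting T cells it drives genes of recirculation such as S1pr1, the sphingosine-1-phosphate receptor that lets T cells leave tissue and lymph nodes. Signals through the T cell receptor lower it, and naive and central memory cells are known for high levels.

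The pooled order of the clusters was not that of each day. At day 10, Klf2 reached 498 CPM in cluster 8 against 153 CPM in cluster 0, 186 CPM in cluster 7 and 181 CPM in cluster 22. At day 17, cluster 8 stood at 326 CPM, below cluster 7 at 411 CPM and cluster 22 at 338 CPM and above cluster 0 at 153 CPM. Day 17 supplied 85.3% of the cells of cluster 8, but 4.60% of cluster 0, 16.6% of cluster 7 and 30.1% of cluster 22, so the pooled values compare clusters of unlike days. Within single grafts with at least 10 cells in both clusters, Klf2 was higher in cluster 8 than in cluster 0 in 8 of 11 grafts, than in cluster 7 in 6 of 12, and than in cluster 22 in 6 of 8. These values describe the choice and were not tested. Other annotated cell types held more Klf2 than all CD4 T cells pooled (221 CPM), among them regulatory T cells (393 CPM) and macrophages (634 CPM).

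**Figure D1:**
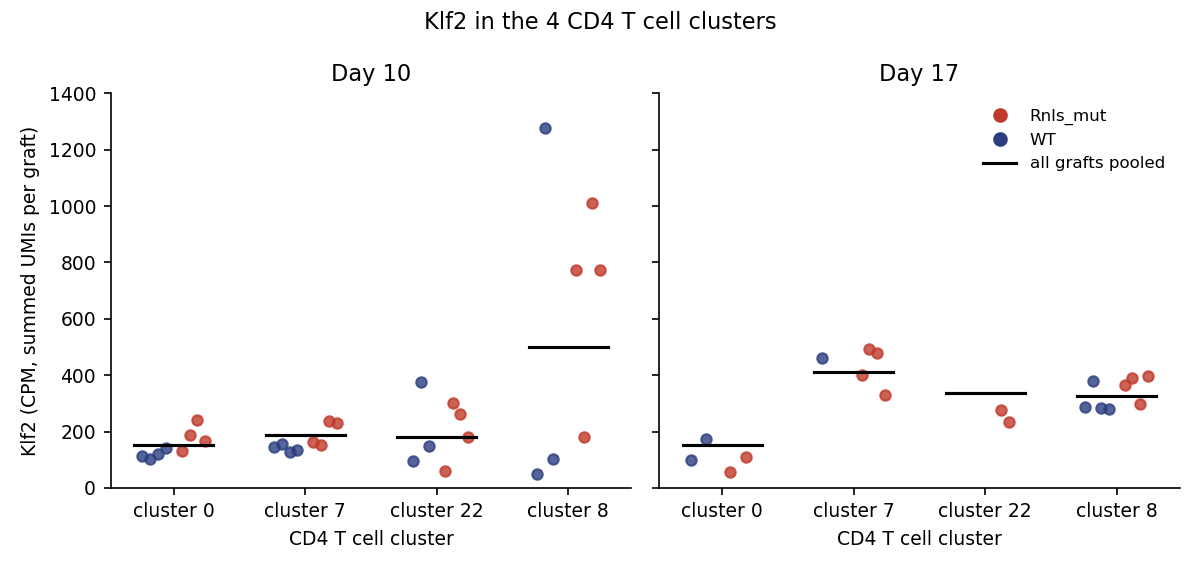
Klf2 in CPM (y axis, linear) in the 4 CD4 T cell clusters (x axis) at day 10 and day 17, with a point for each graft with at least 10 cells of the cluster and a line for all grafts pooled. The line of cluster 8 is the highest at day 10 (498 CPM) and lies below that of cluster 7 at day 17 (326 against 411 CPM).

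Between grafts, Klf2 in cluster 8 varied widely at day 10 and little at day 17. In Rnls mutant grafts 1 to 4 it was 773, 180, 1012 and 775 CPM at day 10, and in WT grafts 1 to 3 it was 50.6, 1277 and 104 CPM, with 282 CPM in the 8 cells of WT graft 4. The genotypes overlapped, and WT graft 2, with 13 cells, held the highest of all values. At day 17 the Rnls mutant grafts had 364, 390, 299 and 396 CPM and the WT grafts 287, 380, 282 and 281 CPM. All 8 grafts of day 17 thus lay inside the range of day 10. The log2 fold change of Rnls mutant against WT was 0.84 at day 10 (SE 0.61, edgeR adjusted p = 0.856), 0.24 at day 17 (SE 0.44, adjusted p = 1.00) and 0.54 over both days (SE 0.38, adjusted p = 0.945). The cluster was chosen by Klf2 pooled over genotypes and days, not by these differences. Exact two-sided permutation tests of the CPM values gave p = 0.629 at day 10, 0.114 at day 17 and 0.509 over both days, where the smallest possible values were 0.0286, 0.0286 and 0.000408. Adjusted over these 3 tests the permutation values were 0.629, 0.343 and 0.629. From day 10 to day 17, Klf2 had a log2 fold change of -0.53 (SE 0.38, edgeR adjusted p = 0.509, exact permutation p = 0.214), and no difference in Klf2 by genotype or day exceeded the spread between grafts. Without WT day 10 graft 2 the day 10 genotype difference was 3.16 and the day difference turned to 0.65, so both rest on that graft of 13 cells. That fit left WT grafts 1 and 3 at day 10, with 5 Klf2 UMIs each, and is not read as a result.

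S1pr1, which KLF2 is known to drive, was not among the leading genes of the cluster. It stood at 269 CPM in cluster 8 and 313 CPM in the other CD4 T cells, and was higher in 8 of the 15 grafts. Other genes of naive and central memory T cells were higher in most grafts. Lef1, a transcription factor of naive T cells, was at 545 against 232 CPM and higher in 12 of 15 grafts, Bach2, a repressor of effector genes, at 456 against 196 CPM and in 14, and Tcf7, the partner of Lef1, at 141 against 62.3 CPM and in 11. Ccr7, the lymph node chemokine receptor, was at 97.7 against 35.7 CPM and higher in 9 of 15. Of the 20 listed genes of this kind, 12 reached 50 CPM on either side, and all of these 12 had a median log2 ratio within grafts above 0, with a median of 0.44 beside 0.06 over the 3439 genes at that level. Within-graft ratios, taken with a pseudocount of 50 CPM, compare cells of like days, and as the clusters were built from these same cells none of them was tested. The name of a cluster highest in Klf2 thus held for cells pooled over grafts, in all and at day 10, but not at day 17. Within single day 10 grafts another cluster was higher in WT grafts 1 and 3 and Rnls mutant graft 2, and cluster 8 in the others. The cluster is called by its number here.

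Of 3439 genes at 50 CPM or more on either side, 52 were higher and 37 lower in cluster 8 than in the other CD4 T cells in all 15 grafts. Among the 15 with the highest ratios were St6galnac3, a sialyltransferase, at 240 against 56.2 CPM, Tox, a nuclear factor of chronically stimulated T cells, at 149 against 51.2 CPM, and Cblb, a ubiquitin ligase that restrains T cell receptor signaling, at 1065 against 424 CPM. Cd69, an activation marker that opposes S1pr1 at the cell surface, stood at 391 against 159 CPM, and Il12rb2, a chain of the interleukin 12 receptor, at 762 against 315 CPM. The others were Tex2, Kdm2b, March3, P2ry10, Gm26740, Elovl5, Wipf1, Rabgap1l, Hivep2 and Dleu2, 2.16-fold to 3.52-fold higher. Cluster 22 lay between cluster 8 and the others for all 15, and came near it for Dleu2 (258 CPM against 264 CPM in cluster 8), Tox (121 CPM) and St6galnac3 (167 CPM). Day entered these pooled ratios too: for Cd69 the ratio was 1.23 on the log2 scale among day 10 cells and 0.18 among day 17 cells, whereas for Cblb it was 1.29 and 1.11.

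The genes lower in cluster 8 in all 15 grafts were led by Ifitm1, an interferon-induced membrane protein, at 213 against 2190 CPM. Its highest level in a graft was 717 CPM in cluster 8 and its lowest in the other CD4 T cells 1084 CPM, so the ranges did not overlap. That gap came from cluster 7 with 5392 CPM, since cluster 0 held 322 CPM and cluster 22 held 404 CPM. Ifitm2 followed at 284 against 1070 CPM, with 1990 CPM in cluster 7, 551 CPM in cluster 0 and 355 CPM in cluster 22, and Lgals1, the lectin galectin-1 of effector cells, at 1151 against 2610 CPM. The mitochondrial chaperone genes Hspd1 and Hspe1 were lower by 2.38 and 2.13 on the pooled log2 scale, but by 0.46 and 0.48 among day 17 cells. The other 10 of the 15 were Ppp1r14b, Ppa1, Crip1, Txn1, Pycard, Actg1, Ranbp1, Psma7, Emp3 and S100a4, 1.55-fold to 2.20-fold lower.

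**Figure D2:**
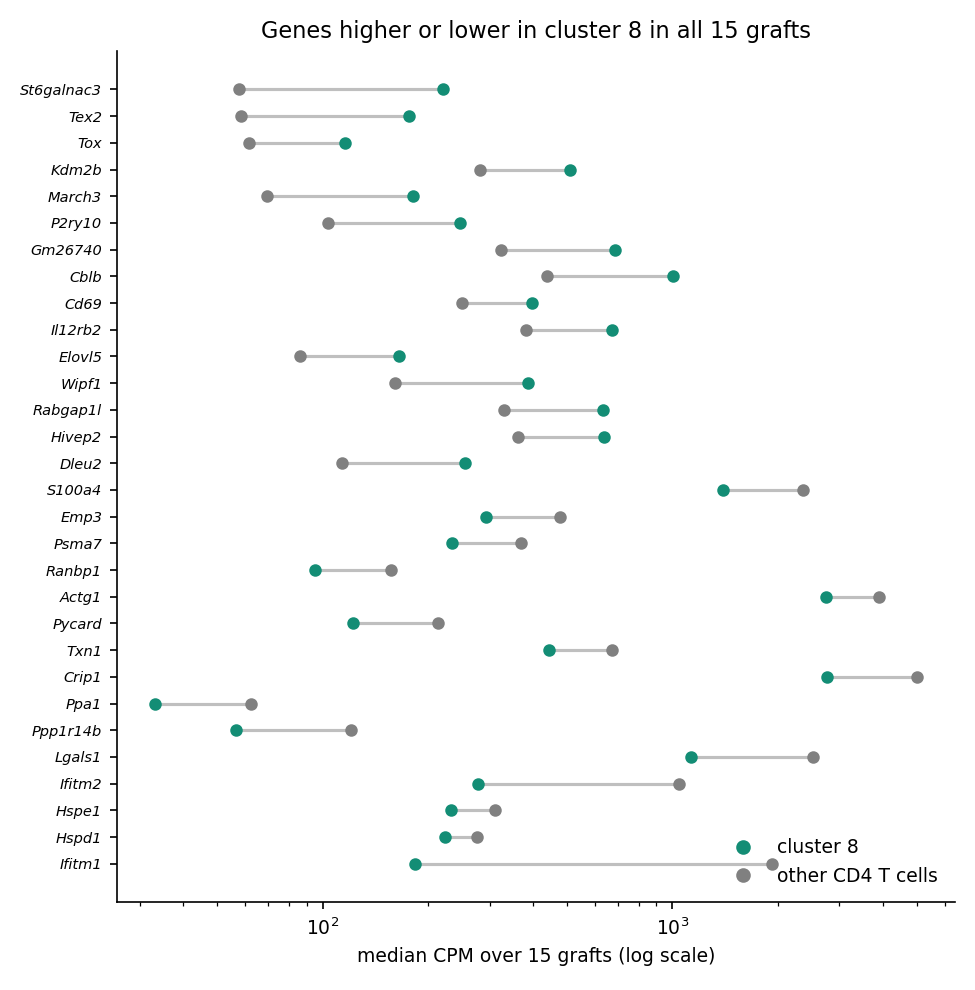
Median CPM over 15 grafts (x axis, log scale) of the 15 genes with the highest and the 15 with the lowest pooled ratio among those with the same direction in all grafts, in cluster 8 and in the other CD4 T cells. Ifitm1 shows the widest gap, with a median of 183 CPM in cluster 8 and 1931 CPM in the other CD4 T cells.

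Lists of genes placed the cluster further, where pairs of CPM are pooled values and so compare cells of unlike days. Of 13 genes of T cell identity, all were found, and Cd3e (969 against 965 CPM), Trac (657 against 566 CPM) and Cd4 (355 against 237 CPM) marked the cells as CD4 T cells. Cd8a and Cd8b1 summed to 27.8 CPM and Foxp3, the factor of regulatory T cells, to a single UMI in the cluster. Cd79a of B cells, Ncr1 of NK cells and Ins1, Ins2 and Iapp of beta cells were at 0, but other members of the B cell and NK cell lists were not. Summed, the B cell list, which holds Cd74, came to 201 against 122 CPM, and the NK cell and ILC1 list to 286 against 266 CPM. The myeloid list came to 586 against 213 CPM. Of 21 Th1 and effector genes at 50 CPM, 10 had within-graft medians above 0 and 11 below. Stat4, which carries interleukin 12 signals, stood at 1938 against 950 CPM and was higher in 14 of 15 grafts. Its medians over grafts were 1332 against 897 CPM at day 10 and 1879 against 1194 CPM at day 17. Ifng, the main Th1 cytokine, stood at 395 against 938 CPM and was lower in 13, Gzmb, a cytotoxic protease, at 84.6 against 356 CPM and lower in 11, and Nkg7 at 488 against 745 CPM and lower in 12. The receptors and regulators of activated T cells Icos (1700 against 990 CPM) and Ctla4 (609 against 215 CPM) were higher in 14 and 13 grafts. Of 13 glycolysis genes at 50 CPM, 11 had medians below 0 (median -0.28), among them Aldoa and Ldha, each lower in 13 of 15 grafts. Of 80 cytosolic ribosomal protein genes, 78 did (median -0.18), and of 12 mitochondrially encoded genes, 10 (median -0.09). Of 13 quiescence factors, leaving out Klf2, which chose the cluster, 10 had medians above 0 (median 0.24), with Foxp1 (213 against 112 CPM) and Btg1 (2895 against 2419 CPM) higher in 12 and 14 grafts. Of 14 immediate early genes, which cells induce within minutes of a stimulus, 10 had medians above 0 (median 0.48).

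For the remaining lists the median log2 ratio within grafts was likewise taken over the members at 50 CPM. It was 0.06 over 4 Krueppel-like factors without Klf2, of which Klf6 (511 against 205 CPM) was higher in 14 of 15 grafts, 0.11 over 16 egress, homing and adhesion receptors, 0.16 over 12 cytokine receptors and 0.15 over 17 activation and costimulation genes. Over 7 inhibitory receptors it was 0.22, over 9 interferon stimulated genes 0.20, over 6 regulatory T cell genes -0.10, over 3 cell cycle genes -0.28 and over 3 follicular helper and Th17 genes 0.40. No CD8 T cell, erythroid or beta cell marker reached 50 CPM, and of the NK cell and B cell lists 1 gene each did. Of the myeloid list 3 genes did, with a median of -0.01.

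Cluster 8 was a minor share of CD4 T cells at day 10 and the main share at day 17. In Rnls mutant grafts 1 to 4 it made up 5.80%, 5.36%, 2.98% and 7.00% of CD4 T cells at day 10, and in WT grafts 15.4%, 2.46%, 3.65% and 2.12%. At day 17 the shares were 70.4%, 75.8%, 67.0% and 59.3% in Rnls mutant and 78.7%, 78.9%, 60.9% and 66.2% in WT grafts. The genotypes overlapped at both days, while the lowest share at day 17 exceeded the highest at day 10. Shares averaged 5.29% ± 1.69 and 5.91% ± 6.35 (SD, n = 4) in Rnls mutant and WT grafts at day 10, and 68.1% ± 6.91 and 71.2% ± 9.11 at day 17. The difference between genotypes was -0.62 percentage points at day 10 (exact two-sided permutation p = 0.971), -3.03 at day 17 (p = 0.571) and -1.83 over both days (p = 0.580; 0.971, 0.870 and 0.870 adjusted over the 3 tests). Of the 30 genes named above as leading the cluster, 0 differed by genotype over all CD4 T cells at an edgeR adjusted p under 0.05, with 2, 4 and 1 at an unadjusted p under 0.05 at day 10, day 17 and over both days. Of all 7858 genes 0.229%, 0.433% and 0.0127% were called there. Over days 29 of the 30 did, where 36.6% of all genes were called, so the shares at the 2 days are values without a test. Without WT day 10 graft 1, whose share was 15.4% (exact 95% binomial interval 10.9% to 20.8%, counting error only), the day 10 difference was 2.54 points (exact permutation p = 0.0857). As shares of all CD45+ cells, cluster 8 made up 0.781% to 2.34% of Rnls mutant and 0.429% to 1.82% of WT grafts at day 10, and 9.57% to 15.01% and 3.78% to 25.8% at day 17.

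**Figure D3:**
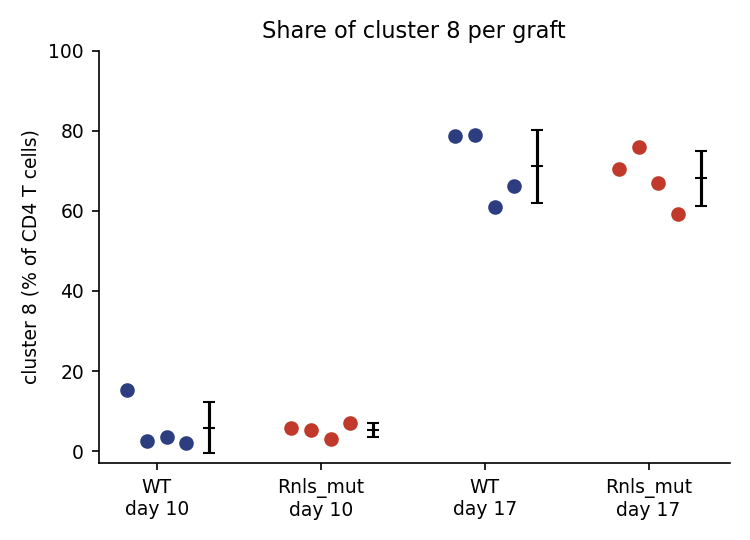
Share of cluster 8 among the CD4 T cells of each graft in percent (y axis), by genotype and day (x axis), with the mean and SD (n = 4) beside the points. All grafts lie at or under 15.4% at day 10 and at or over 59.3% at day 17, with the genotypes overlapping at each day.

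Whether the graft's genotype altered the cells of the cluster was tested over 3366 genes. At day 10, 1 gene passed an adjusted p of 0.05 in edgeR's quasi-likelihood test (0.0297% of those tested). It was Cd74, the invariant chain of MHC class II, an antigen presentation gene of B cells and myeloid cells, which was lower in Rnls mutant grafts with 133, 50.0, 63.3 and 81.5 CPM against 263, 351 and 352 CPM in WT grafts 1 to 3. The ranges of the tested grafts did not overlap (log2 fold change -2.08, SE 0.33, edgeR adjusted p = 0.00509), but WT graft 4, left out for its 8 cells, stood at 94.1 CPM, inside the Rnls mutant range. In the other CD4 T cells Cd74 was lower in Rnls mutant grafts too, at 54.2 to 96.2 CPM against 110 to 142 CPM in WT grafts 1 to 3. The B cell list, which holds Cd74, came to 59.8 to 101 against 146 to 168 CPM in CD8 T cells at day 10. The call was lost without Rnls mutant graft 2 (-1.84, edgeR adjusted p = 0.0828), without WT graft 3 (-1.97, adjusted p = 0.0822) and with day 10 fitted alone (-2.02, adjusted p = 0.129). Dusp2 (1.68, SE 0.36, adjusted p = 0.157), Ifitm3 (1.30, SE 0.35, adjusted p = 0.334) and Cd69 (1.47, SE 0.40, adjusted p = 0.334) had the smallest p among genes with higher values and did not pass in edgeR. Beside Cd74, Gm10076 (-0.86, SE 0.21, adjusted p = 0.263) and Ikzf2, the factor Helios (-2.36, SE 0.58, adjusted p = 0.263), did not pass either.

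At day 17, 15 genes were higher in Rnls mutant grafts and 0 lower (0.446% called, with 186 genes at an unadjusted p under 0.05 in both directions together; edgeR). All 15 are known from macrophages and other antigen-presenting cells: Apoe, C1qa, C1qb, Ccl8, Cd74, Ctss, Fcer1g, H2-Aa, H2-Ab1, H2-Eb1, Lyz2, Saa3, Selenop, Tyrobp and Wfdc17. Lyz2, the lysozyme of macrophages, stood at 605, 667, 561 and 819 CPM in Rnls mutant grafts 1 to 4 and at 187, 154, 113 and 229 CPM in WT grafts (log2 fold change 1.94, SE 0.21, adjusted p = 2.6e-06). Ccl8, a macrophage chemokine, stood at 539, 665, 628 and 732 CPM against 130, 108, 49.3 and 110 CPM (2.64, SE 0.22, adjusted p = 3.0e-08). For both genes the genotypes did not overlap. H2-Ab1, an MHC class II chain, stood at 215, 281, 274 and 319 CPM against 80.3, 35.9, 38.7 and 57.2 CPM (2.18, SE 0.25, adjusted p = 7.1e-06), again without overlap. Areg (-1.95, SE 0.49, adjusted p = 0.0891), Nme1 (-0.78, SE 0.23, adjusted p = 0.361) and Cxcl10 (-1.83, SE 0.57, adjusted p = 0.478) were the nearest genes with lower values and did not pass in edgeR.

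Transcripts of the myeloid list moved the same way in T cells outside the cluster. Summed over 14 listed genes, it came to 991 to 1405 CPM in cluster 8 of Rnls mutant grafts at day 17 and 247 to 353 CPM in WT grafts. In the other CD4 T cells the ranges were 888 to 974 and 321 to 503 CPM, and in CD8 T cells 955 to 1357 and 270 to 533 CPM. At day 10 they ran the other way, with 80.0 to 136 CPM in Rnls mutant and 162 to 383 CPM in WT grafts in cluster 8, and 164 to 182 against 271 to 318 CPM in CD8 T cells. Of the 14 genes 4 were tested, of which 4 rose at day 17 and 0 changed at day 10. Flt3 and Siglech were at 0, and Csf1r, the receptor that defines macrophages, was at 2.95 CPM in the cluster. Macrophages and monocytes made up 60.6% to 67.9% of the sorted cells in Rnls mutant grafts at day 17, against 32.6% to 81.7% in WT grafts. The part of RNA from those cells in the called genes was not tested. In the other CD4 T cells 17 genes were called higher at day 17 and 0 lower (0.304%), and 16 lower at day 10 and 0 higher (0.286%).

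**Figure D4:**
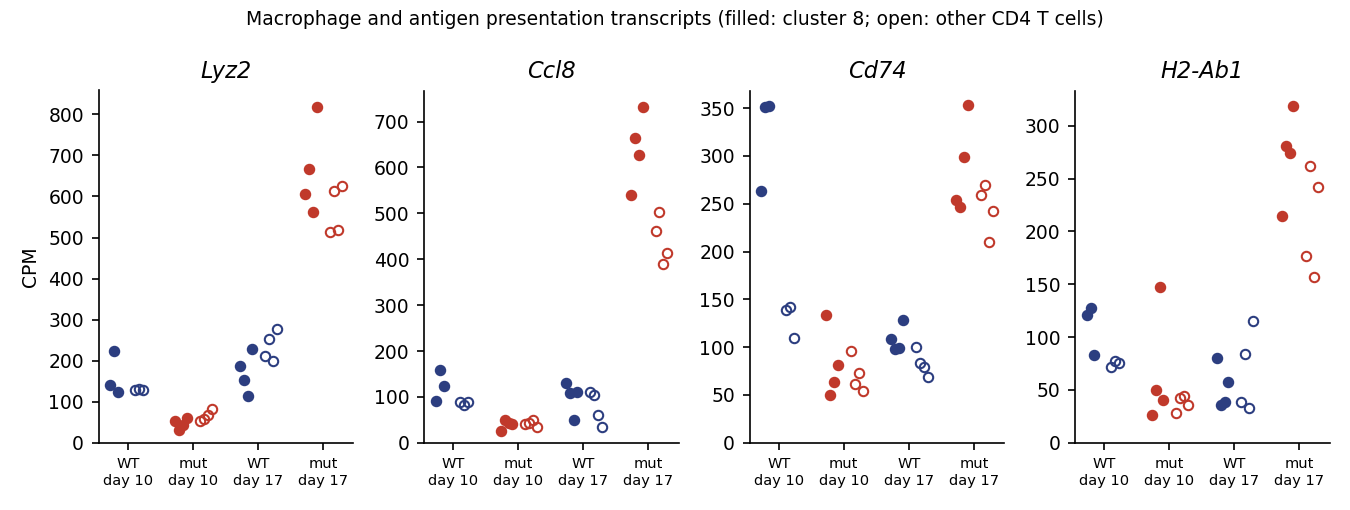
Lyz2, Ccl8, Cd74 and H2-Ab1 in CPM (y axis, linear, each panel with its own scale) in each graft by group (x axis), in cluster 8 (filled) and in the other CD4 T cells (open). In cluster 8 at day 17 the Rnls mutant grafts lie at 561 CPM or more for Lyz2 and the WT grafts at 229 CPM or less, and the open points of the same grafts show the same order of genotypes.

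Over both days together 0 genes passed in edgeR, with 170 at an unadjusted p under 0.05, and DESeq2 called 1. Dusp2, a phosphatase of MAP kinases, came nearest (1.13, SE 0.21, adjusted p = 0.0513), followed by Areg, the epidermal growth factor family member amphiregulin, with a lower value (-2.76, SE 0.57, adjusted p = 0.0993). Ifitm3 (0.89, SE 0.21, adjusted p = 0.308), Adgre5 (0.93, SE 0.24, adjusted p = 0.496) and Ikzf2 (-1.42, SE 0.38, adjusted p = 0.496) did not pass in edgeR. The genotype effect differed between the days for 7 genes, all with a higher value at day 17 (0.208% called; edgeR), namely Cd74, Ccl8, Lyz2, H2-Aa, H2-Ab1, H2-Eb1 and Gm10076. For Cd74 the difference was 3.46 (SE 0.39, adjusted p = 9.3e-06), and for Gm10076 1.34 (SE 0.27, adjusted p = 0.0167). Without WT day 10 graft 1, H2-Ab1 (2.93, edgeR adjusted p = 0.307) and Gm10076 (1.19, adjusted p = 0.307) did not pass, and without WT day 10 graft 3, H2-Aa (3.68, adjusted p = 0.0709), H2-Eb1 (3.01, adjusted p = 0.263) and Gm10076 (1.35, adjusted p = 0.0834) did not. Gm10076 also did not pass with low genes kept (1.27, adjusted p = 0.288), with the replicate block (1.30, adjusted p = 0.105), or without Rnls mutant day 10 graft 2 (1.31, adjusted p = 0.0711) or day 17 graft 1 (1.31, adjusted p = 0.0705). In the other direction Cd69 (-1.82, SE 0.47, adjusted p = 0.220), Selenos (-1.71, SE 0.46, adjusted p = 0.254) and Vasp (-1.55, SE 0.45, adjusted p = 0.297) came nearest and did not pass in edgeR. The genotype effect in cluster 8 was also compared with that in the other CD4 T cells of the same grafts, over 4876 genes, of which 0 passed (edgeR, 180 at an unadjusted p under 0.05). Lars2, Dusp2 and Narf with higher and Plac8 and Penk with lower values were among the nearest, each with an adjusted p of 1.00. Of 14 glycolysis genes tested, 13 had positive log2 fold changes at day 10 (median 0.52) and 0 at day 17 (median -0.48), beside medians of all genes of -0.01 at both days, and none passed.

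From day 10 to day 17, 87 genes changed in cluster 8 over both genotypes in edgeR (2.58% called), 32 higher (0.951%) and 55 lower (1.63%). Of 30 tested genes whose symbols begin with Hsp or Dnaj, a group formed after the calls were seen, 10 fell, 0 rose and 20 did not pass. The 10 were Dnaja1, Hsp90aa1, Hsp90ab1, Hspa1a, Hspa1b, Hspa5, Hspa8, Hspd1, Hspe1 and Hsph1. Hsp90aa1, a stress-induced chaperone, stood at 1972, 1681, 1750 and 1536 CPM in Rnls mutant grafts and 1315, 1979 and 1492 CPM in WT grafts at day 10. At day 17 it stood at 318, 390, 354 and 560 CPM and at 385, 359, 454 and 524 CPM. The days did not overlap (log2 fold change -1.98, SE 0.14, adjusted p = 1.2e-09). Hspa1a fell from 166 to 1596 CPM, with a median of 360 CPM, to 4.02 to 52.4 CPM, with a median of 16.4 CPM (-4.82, SE 0.49, adjusted p = 7.0e-07). Its near-identical neighbour Hspa1b (-4.21, SE 0.48, adjusted p = 3.6e-06) may share reads with it. Heat shock genes were lower at day 17 in the other CD4 T cells too, with Hspa1a at -4.42 (adjusted p = 1.0e-07).

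Other genes that fell included Gzmb (-2.14, SE 0.34, edgeR adjusted p = 0.000329), Zeb2, a factor of terminal effectors (-2.21, SE 0.32, adjusted p = 6.5e-05), Gm10076 (-0.96, SE 0.13, adjusted p = 4.4e-05), Ikzf2 (-1.70, SE 0.40, adjusted p = 0.0177) and Hk2, the first enzyme of glycolysis (-1.05, SE 0.23, adjusted p = 0.00829). Gzmb was the only 1 of 20 Th1 and effector genes that fell, and Hk2 the only 1 of 14 glycolysis genes. Without WT day 10 graft 1 Zeb2 stood at -1.47 (edgeR adjusted p = 0.103). Among the genes that rose were Slc9a9, an endosomal sodium-proton exchanger (1.68, SE 0.21, adjusted p = 1.1e-05), Inpp4b, a phosphoinositide phosphatase (1.14, SE 0.16, adjusted p = 6.5e-05), Nucks1 (1.77, SE 0.33, adjusted p = 0.00224) and Fam169b (1.07, SE 0.22, adjusted p = 0.00614). The call of Nucks1 was lost without WT day 10 graft 1 (1.40, edgeR adjusted p = 0.0563) and with the 8 cells of WT day 10 graft 4 included (1.07, adjusted p = 0.109). Wfdc17, Lyz2, Ccl8, Apoe, Selenop and C1qa, all of them myeloid transcripts, made up the other 6 of the 10 with the smallest p. Of the lists, 1 of 16 egress and adhesion receptors rose (Itgb1, an integrin chain, 0.76, SE 0.18, adjusted p = 0.0217) and 1 of 17 activation genes rose (Nr4a3, a factor induced by T cell receptor signals, 0.96, SE 0.25, adjusted p = 0.0315). Of 12 naive and central memory genes, 13 quiescence factors, 12 cytokine receptors, 7 inhibitory receptors and 10 interferon stimulated genes, none passed in edgeR. Of 14 immediate early genes, Junb rose (0.73, SE 0.16, adjusted p = 0.00771) and Jun, Hspa1a and Hspa1b fell. Cells of cluster 8 came from 171 cells at day 10 and 989 at day 17, and day and library cannot be told apart.

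The change over days in cluster 8 was then compared with that in the other CD4 T cells of the same 15 grafts. Over all grafts, clusters 0, 7 and 22 supplied 2013, 1140 and 167 of those other cells at day 10. At day 17 they supplied 97, 227 and 72. A day change in the other CD4 T cells thus also holds a change in their mix of clusters, which was not separated. In edgeR, 19 of 4876 genes differed (0.390%), 4 with a higher (0.082%) and 15 with a lower value in cluster 8 (0.308%), while 805 of 5592 genes (14.4%; 397 or 7.1% higher and 408 or 7.3% lower) changed over days in the other CD4 T cells alone. Of 14 listed immediate early genes, 5 had a lower value and 0 a higher one (median -1.16, beside 0.05 over all genes), namely Fos, Fosb, Jun and Egr1, which encode transcription factors, and Dusp1, a phosphatase of MAP kinases. Of 17 activation genes 2 had a lower value, Egr1 and the transcription factor Irf4. Rgs1 and Rgs2, which end G protein signals, Tnfaip3, which restrains NF-kB, and Cited2 were lower as well. The other lower genes were Dennd4a, Dennd4c, Nck2 and Gm26917. The fit also counted Klf2, which is not read as a result since it chose the cluster. Clusters were made from the expression of these same cells, and whether these genes entered the clustering is not given in the sources used here.

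Fos showed the widest difference. In cluster 8 at day 10 it stood at 746, 340, 907 and 462 CPM in Rnls mutant and at 10.1, 1915 and 166 CPM in WT grafts, against 16.1 to 38.2 CPM in the other CD4 T cells. At day 17 cluster 8 held 52.4 to 504 CPM and the other CD4 T cells 10.1 to 225 CPM. At day 10 all grafts but WT graft 1 thus lay above the whole range of the other CD4 T cells, and at day 17 the ranges overlapped. The log2 day change in cluster 8 minus that in the other CD4 T cells was -3.38 (SE 0.47, edgeR adjusted p = 6.2e-06). Jun (-1.79, SE 0.31, adjusted p = 0.000924), Rgs1 (-1.46, SE 0.27, adjusted p = 0.00187), Egr1 (-1.68, SE 0.39, adjusted p = 0.0281) and Fosb (-1.28, SE 0.27, adjusted p = 0.00927) differed likewise. In the other CD4 T cells, Fos rose by 1.94 and Egr1 by 1.28 (edgeR adjusted p = 0.000242 and 0.00119), whereas Jun and Rgs1 did not pass (0.53 and -0.23, adjusted p = 0.0902 and 0.612). In cluster 8, Jun fell (-1.30, SE 0.33, adjusted p = 0.0275) and Fos did not pass (-1.47, SE 0.53, adjusted p = 0.147).

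Klf2, which chose the cluster, is described here without a test. In the other CD4 T cells, whose mix of clusters changed between the days, it ranged from 117 to 238 CPM at day 10 (median 134 CPM). At day 17 it ranged from 210 to 611 CPM (median 284 CPM), a log2 change of 0.99. In cluster 8 the medians were 773 and 331 CPM. At day 10, WT grafts 1 and 3 held 50.6 and 104 CPM in cluster 8, below the 117 and 131 CPM of their other CD4 T cells. Rnls mutant graft 2 held 180 against 179 CPM, and the other tested grafts of day 10 were higher in cluster 8. The log2 day change of Klf2 in cluster 8 minus that in the other CD4 T cells, -1.40 (SE 0.34), is likewise given without a test. It was -0.28 without WT day 10 graft 2. Without that graft the number of genes that differed fell from 19 to 7, and Fos (-1.95, adjusted p = 0.169), Jun (-1.29, adjusted p = 0.0841), Rgs1 (-0.99, adjusted p = 0.0800), Fosb (-1.10, adjusted p = 0.110) and Egr1 (-1.10, adjusted p = 0.277) no longer passed in edgeR. Dennd4a, Tnfaip3, Gm26917 and Dnaja1 passed whichever single graft was left out. Tnfaip3 stood at 390 to 853 CPM at day 10 in cluster 8, above the 185 to 231 CPM of the other CD4 T cells, and at 538 to 882 against 425 to 738 CPM at day 17 (-1.04, SE 0.19, adjusted p = 0.00130). Dennd4a had a difference of -1.17 (SE 0.15, adjusted p = 2.4e-06). Higher in cluster 8 were the chaperones Dnaja1 (0.75, SE 0.15, adjusted p = 0.00315) and Hspe1 (0.89, SE 0.20, adjusted p = 0.0283), which fell less there over the days, Nucks1 (1.58, SE 0.37, adjusted p = 0.0322) and Dad1 (1.02, SE 0.24, adjusted p = 0.0322). The calls of Hspe1, Nucks1 and Dad1 were each lost without several of the single grafts, as were those of Fosb and Egr1. Rgs2 did not pass without WT day 10 graft 3 (-1.13, edgeR adjusted p = 0.184), nor Dennd4c without WT day 10 graft 1 (-1.24, adjusted p = 0.0553).

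**Figure D5:**
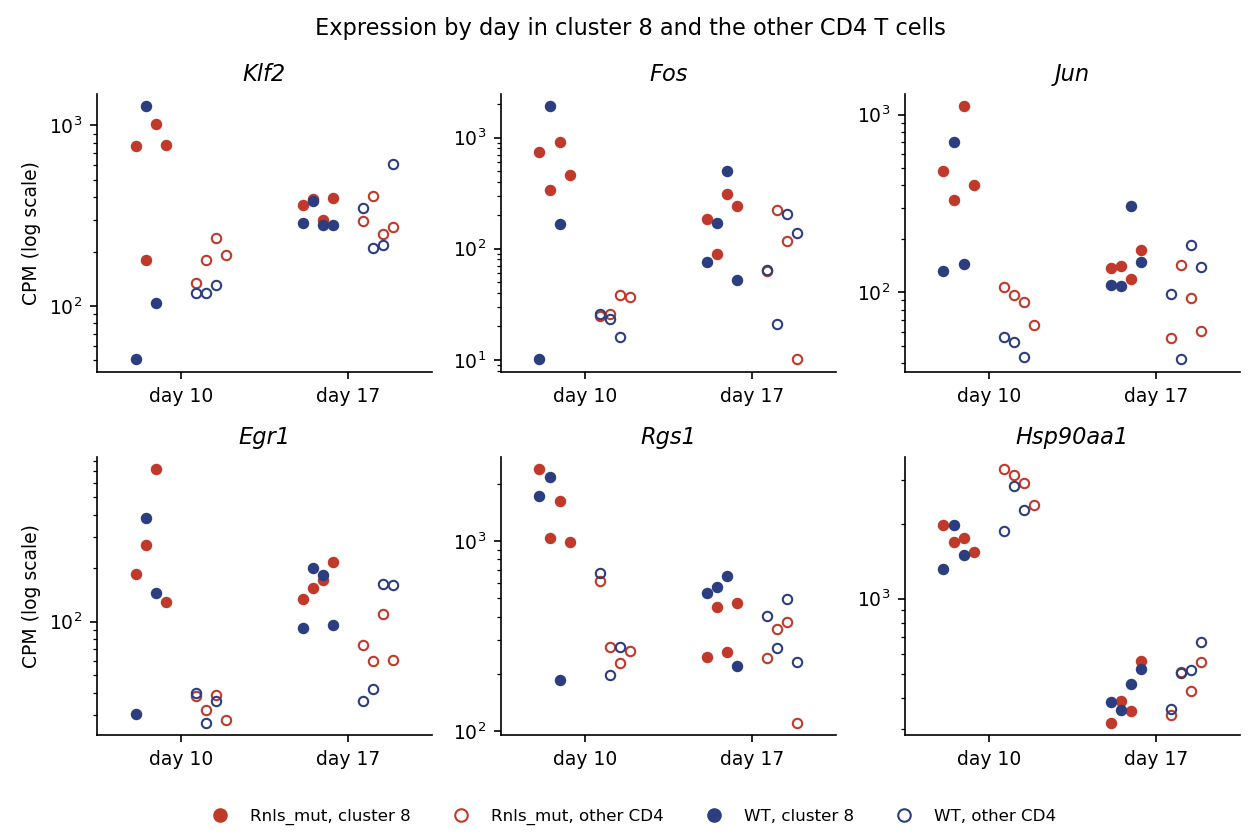
Klf2, Fos, Jun, Egr1, Rgs1 and Hsp90aa1 in CPM (y axis, log scale) at day 10 and day 17 (x axis), in each graft with at least 10 cells, in cluster 8 (filled) and in the other CD4 T cells (open). Fos in cluster 8 runs from 10.1 to 1915 CPM at day 10, where the other CD4 T cells lie at 38.2 CPM or less, and Hsp90aa1 falls in both.

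Klf2 lies on chromosome 8 (GRCm38, 72319033 to 72321656, plus strand), Fos on chromosome 12 (85473890 to 85477273, plus strand) and Jun on chromosome 4 (95049034 to 95052222, minus strand), by the GENCODE annotation. Klf2 chose the cluster, and Fos and Jun had a lower day change in it than in the other CD4 T cells. The calls of Fos and Jun were lost without WT day 10 graft 2. The 250 bases before the RefSeq transcription starts of these genes are shown (GRCm38.p6). For Klf2 the window ends at 72319061, past the GENCODE gene start at 72319033, so its last bases lie inside the gene as GENCODE gives it. They are chr8:72318812-72319061 (plus strand), chr12:85473640-85473889 (plus strand) and chr4:95052223-95052472 (minus strand), written 5′ to 3′ on the strand of the gene. Capitals mark TGACG, the core that CREB and ATF factors read, searched on both strands, where the other strand reads CGTCA.
Klf2: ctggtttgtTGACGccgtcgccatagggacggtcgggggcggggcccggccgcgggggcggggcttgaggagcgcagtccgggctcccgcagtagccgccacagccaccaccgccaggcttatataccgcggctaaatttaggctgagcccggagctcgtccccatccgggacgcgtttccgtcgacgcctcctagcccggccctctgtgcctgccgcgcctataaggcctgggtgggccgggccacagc
Fos: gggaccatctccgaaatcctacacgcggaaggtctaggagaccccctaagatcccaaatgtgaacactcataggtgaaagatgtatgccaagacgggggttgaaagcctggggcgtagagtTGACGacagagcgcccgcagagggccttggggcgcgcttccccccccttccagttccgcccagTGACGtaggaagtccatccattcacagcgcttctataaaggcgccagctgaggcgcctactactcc
Jun: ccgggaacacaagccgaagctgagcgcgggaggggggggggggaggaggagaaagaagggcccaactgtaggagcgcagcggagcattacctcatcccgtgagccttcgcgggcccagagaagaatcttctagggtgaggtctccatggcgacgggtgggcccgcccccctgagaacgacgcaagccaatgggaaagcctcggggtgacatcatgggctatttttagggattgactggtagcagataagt
TGACG begins 241 bases before the RefSeq start in Klf2 and 129 and 66 bases before it in Fos, and does not occur in this window of Jun. Only these exact letters were searched, so variants of the core were not counted. Of the 15 genes with a lower day change in cluster 8, 12 had such a window, all but Egr1, Gm26917 and Rgs1. Leaving out Klf2, which chose the cluster, TGACG or CGTCA occurred in 6 of 11, namely Dusp1, Fos, Fosb, Nck2, Rgs2 and Tnfaip3, and in 17.8% of all 32851 windows. The former counts genes and the latter single windows, whether or not their genes were tested here, so these are unlike measures. The calls of Fos, Fosb and Rgs2 were lost without single grafts. The CArG box of serum response factor occurred in 0 of the 12 and in 1.47% of all windows. The search covered 250 bases per window and left out Egr1, so it cannot tell whether these genes carry the box further upstream. These matches describe letters in a window, and no binding was measured.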

How the data were processed

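The authors' deposited table of raw UMI counts per gene and cell was used, with their cluster, cell type and hashtag of each cell. Cell Ranger and the mouse build mm10 are named in the submitters' processing notes, and the clustering settings are not given in the sources used here. The 4 hashtag libraries were not used. Counts of cluster 8 were summed per graft (library and hashtag), and grafts with at least 10 such cells entered edgeR 4.0.16 in R 4.3.3 (TMM, filterByExpr, glmQLFit, glmQLFTest), with 4 groups of genotype and day and Benjamini-Hochberg adjustment over all genes tested, at 0.05. A second fit held cluster 8 and the other CD4 T cells of each graft, with the graft as a block. Summed counts per tested graft ranged from 31328 to 995929 UMIs. Intervals cover counting error only. On counts simulated from these grafts with log2 changes of 1.5, 57.9% of 183 changed genes among 3331 were recovered at day 10, 95.1% at day 17 and 95.6% over both days, with 4, 6 and 7 false calls, and smaller changes were not simulated.

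CPM values, ratios and exact permutation tests were computed in Python 3.11.15 with SciPy 1.17.1, NumPy 2.4.6 and pandas 2.3.3, and plots with matplotlib 3.10.9. Named genes were those of 23 lists (of which examples are given), the 15 highest and 15 lowest ratios at 50 CPM or more with the same direction in all grafts, and at most 10 called genes per direction and comparison, or the 3 with the smallest p where fewer than 3 were called. Some genes under this rule are not reported here. All 15 genes called at day 17, the 10 heat shock genes and the genes called over days outside this rule (Irf4, Cited2, Dusp1, Nck2) were named after their values were seen. The cluster, lists and tests were chosen with earlier results of these data known. Alternatives were DESeq2 1.42.0, RLE factors, all genes kept however low, a minimum of 1 or of 20 cells, a block for the hashtag number, separate fits per day, other denominators of the share, the 5% of CD4 T cells with the most UMIs left out (246 cells, 39 of them in cluster 8), and each graft left out. The authors super-loaded the libraries, and no doublet caller was run here. Leaving out the cells with the most UMIs does not identify doublets, so their part in the results was not tested.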

Additional observations from a re-analysis of the deposited data

Results flagged for a closer look

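Several results stood apart by simple rules of spacing or by a test of a difference. Of 58 groups of 4 grafts checked for a value far from the others (Klf2, the share and 17 other genes), 2 were flagged, where chance flags about 1 in 20. The share of cluster 8 among CD4 T cells in WT day 10 graft 1 was 15.4%, with 3.65% the next highest. Klf2 in WT day 17 graft 2 was 380 CPM, with 281 to 287 CPM in the other 3.

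The genotype effect differed between the days, by edgeR's test of the difference, for Cd74 (3.46), Ccl8 (4.12), Lyz2 (3.66), H2-Aa (4.17), H2-Ab1 (3.16), H2-Eb1 (3.59) and Gm10076 (1.34), all on the log2 scale and all higher at day 17. The same direction of the myeloid transcripts in CD8 T cells is given in the report, and the part of RNA from other cells was not tested.

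The day effect differed between cluster 8 and the other CD4 T cells for Dnaja1 (0.75), Hspe1 (0.89), Nucks1 (1.58) and Dad1 (1.02), and for Dennd4a (-1.17), Fos (-3.38), Jun (-1.79), Tnfaip3 (-1.04), Rgs1 (-1.46), Gm26917 (-1.53), Dennd4c (-1.36), Rgs2 (-1.55), Fosb (-1.28) and Egr1 (-1.68). All but Dennd4a, Tnfaip3, Gm26917 and Dnaja1 lost the call in some fit with a single graft left out.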

How the results depend on the processing

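Numbers of called genes are from edgeR at an adjusted p under 0.05 unless stated. DESeq2 called 1 gene for genotype over both days. With all genes kept however low, the genotype comparisons called 10 genes at day 10, 39 at day 17, 8 over both days and 15 for the difference between days, the day comparison 231, and the comparisons with the other CD4 T cells 3 for genotype and 279 for day. With a minimum of 1 cell per graft, and likewise without the 5% of cells with the most UMIs, 2 genes were called at day 10 and 1 over both days. Day 10 fitted alone called 0. The hashtag number as a replicate block called 3 genes over both days. Deviations of grafts with the same number correlated at -0.00733 to 0.146 (7 pairs) and of other numbers at -0.137 to 0.112 (21 pairs), so the number was not taken as a pairing. The day 10 genotype difference in share turned to 0.548 points of all CD45+ cells (exact permutation p = 0.257) and 0.595 points of all T cells (p = 0.629).

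With each graft left out in turn, the genotype comparisons called 0 to 2 genes at day 10, 9 to 18 at day 17, 0 to 2 over both days and 4 to 9 for the difference between days. The lowest at day 17 was without Rnls mutant day 17 graft 2, and the lowest of the difference without WT day 10 graft 3. The day comparison called 46 (without WT day 10 graft 1) to 140 (without WT day 17 graft 3). The day comparison with the other CD4 T cells called 7 (without WT day 10 graft 2) to 60 (without Rnls mutant day 10 graft 4), with 10, 12 and 10 without Rnls mutant day 10 graft 3 and day 17 grafts 2 and 3, and 45 without WT day 17 graft 3. For Klf2 the log2 change by genotype was 0.12 to 3.16 at day 10, its difference between days -2.91 to 0.12, reversed without WT day 10 graft 1, and its change by day -0.89 to 0.65. The day 10 difference in share was -1.88 to 2.54 points, and also reversed without Rnls mutant day 10 graft 3 (0.15). The causes were not tested. A minimum of 20 cells could be fitted only for day 17, since 1 WT day 10 graft has as many. Few cells at day 10 limit what could be detected there.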
